A study of Mus musculus with 6 samples.

Results

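The 10 genes described here code for proteins that sense bacterial products at the cell surface and in endosomes: Ly86 and Cd180, which form the RP105 complex, Ly96, Tlr4 and Cd14, which form the lipopolysaccharide receptor, the receptors Tlr1, Tlr2, Tlr6 and Tlr9, and the adaptor Myd88. They were found by gene symbol and had 13 probe sets, of 18193 genes and 45037 probe sets on the array. The set was chosen by earlier results of the same data, in which Ly86 lay far below wild type in both knockout genotypes. The differences of the members from wild type are therefore given as a description with no p-value, counts of members past the threshold against wild type are printed with nothing read from them, and the difference between the knockout genotypes, which the choice did not use, carries the tests.

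RNA was measured in granulocyte/macrophage progenitors (GMPs), the marrow cells from which granulocytes and monocytes develop, on 6 Affymetrix Mouse Genome 430 2.0 arrays. The IRF4/8 DKO group, from BL6 mice lacking both IRF4 and IRF8, had a male and a female mouse of 16 weeks. The IRF8 KO group had a female of 12 and a male of 22 weeks, and the wild-type (WT) group a male of 12 and a female of 19 weeks, all of strain BL6. Within each genotype, replicate 1 is given before replicate 2. Each array came from a mouse, so p-values measure the spread between these 2 arrays per genotype, in which mouse, sex and age vary together. The sources used here do not say how the alleles were made.

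Toll-like receptors are membrane proteins with leucine-rich repeats that recognise microbial molecules and, through MYD88 and other adaptors, activate NF-kB and cytokine genes. TLR4 reads lipopolysaccharide through its partner MD-2, the Ly96 product, after CD14 has delivered it. RP105, the Cd180 product, is a relative of TLR4 without the intracellular signalling domain, and it is held at the surface by MD-1, the Ly86 product, a relative of MD-2. RP105 and MD-1 are known from B cells, where they promote activation, and from macrophages and dendritic cells, where they restrain TLR4.

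Ly86, Cd180, Tlr6 and Myd88 are shown by the sequence around their annotated transcription starts, since Ly86 was near the bottom of the knockout arrays, Cd180 codes for its partner, and IRF proteins bind repeats of GAAA. The windows are from RefSeq (GRCm38.p6) and run from 250 bases before to 50 after the start. Capitals mark matches, on either strand, to an IRF repeat (GAAANNGAA). An ETS and IRF pair (GGAANNGAA) was also searched, and matches to the 2 patterns can overlap. Windows were found for 7 of the 10 genes.
Ly86, chr13:37345095-37345394, plus strand: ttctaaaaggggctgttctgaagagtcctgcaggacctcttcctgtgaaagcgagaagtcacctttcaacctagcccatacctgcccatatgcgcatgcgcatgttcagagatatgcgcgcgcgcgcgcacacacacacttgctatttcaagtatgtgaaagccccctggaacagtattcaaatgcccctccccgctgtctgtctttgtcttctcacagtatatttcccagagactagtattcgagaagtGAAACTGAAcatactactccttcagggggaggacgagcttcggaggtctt
Cd180, chr13:102693297-102693596, plus strand: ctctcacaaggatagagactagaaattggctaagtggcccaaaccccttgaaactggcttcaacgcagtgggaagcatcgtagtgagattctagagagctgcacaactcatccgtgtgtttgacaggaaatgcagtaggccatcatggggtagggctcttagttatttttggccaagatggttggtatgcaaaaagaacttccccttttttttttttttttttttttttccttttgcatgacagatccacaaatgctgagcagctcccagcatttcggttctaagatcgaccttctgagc
Tlr6, chr5:64959117-64959416, minus strand: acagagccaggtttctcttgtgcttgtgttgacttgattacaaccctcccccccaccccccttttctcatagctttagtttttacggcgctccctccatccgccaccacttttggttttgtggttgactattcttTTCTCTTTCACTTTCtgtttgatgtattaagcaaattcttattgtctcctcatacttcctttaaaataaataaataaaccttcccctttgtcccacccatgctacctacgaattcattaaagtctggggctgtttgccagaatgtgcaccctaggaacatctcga
Myd88, chr9:119339969-119340268, minus strand: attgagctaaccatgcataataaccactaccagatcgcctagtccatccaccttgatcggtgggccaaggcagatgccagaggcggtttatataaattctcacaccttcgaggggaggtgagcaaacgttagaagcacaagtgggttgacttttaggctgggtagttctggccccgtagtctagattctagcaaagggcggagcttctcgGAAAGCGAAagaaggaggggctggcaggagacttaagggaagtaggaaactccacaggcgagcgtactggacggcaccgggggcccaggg
The Ly86 window held GAAACTGAA, which starts at base 1 of the annotated transcript. The Tlr6 window held 2 overlapping matches on the other strand, at -115 and -109 from the start, and the Myd88 window held GAAAGCGAA at -40. Neither pattern was found in the windows of Cd180, Tlr1, Tlr2 and Tlr9, or in a second Tlr6 window, which says only that these letters are not in those windows. Of the 10 windows of the members, 3 held the IRF repeat and 0 the ETS and IRF pair. Of all 32851 windows searched, 8.56% held the IRF repeat and 8.24% the pair. The patterns were chosen after the windows of the members were read. Tlr1, Tlr6 and Cd180 also have several windows, which overlap for Cd180, so nothing is read from these shares. A match is a description of the letters and does not show binding.

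The arrays and the sort were checked before the members were read. Median intensity was 37.5 and 34.1 in IRF4/8 DKO, 38.6 and 38.4 in IRF8 KO and 45.3 and 41.7 in WT. The 8 GMP markers were measured, with 0 of 12 tested probe sets past the test in any comparison. Of all probe sets, 0.299% were called in IRF4/8 DKO against WT, 0.0302% in IRF8 KO against WT and 0% between the knockouts. Nothing is therefore read from the absence of calls. Mpo, a granule enzyme of GMPs, read 14312 and 15417 in IRF4/8 DKO, 13264 and 13216 in IRF8 KO and 12946 and 14581 in WT. Cd34 lay lower in the knockouts, at 590.3 and 508.7 in IRF4/8 DKO, 440.3 and 668.6 in IRF8 KO, and 1747 and 1401 in WT. Fcgr3, an Fc receptor gene of the sort gate, lay higher in the knockouts, at 2516 and 5863 in IRF4/8 DKO, 2618 and 6315 in IRF8 KO, and 1089.6 and 1259 in WT. The Irf8 signal was not lower in the knockouts: Irf8 read 2611 and 4778 in IRF4/8 DKO, 3811 and 2602 in IRF8 KO, and 2588 and 3052 in WT by its first probe set, and the first Irf4 probe set read 66.0 and 54.6 in IRF4/8 DKO, 13.8 and 7.66 in IRF8 KO, and 32.1 and 23.5 in WT. The second Irf8 probe set read 934 and 1899.8 in IRF4/8 DKO, 1333 and 1131 in IRF8 KO, and 507 and 704 in WT, and the second Irf4 probe set 11.8 and 20.2, 29.7 and 14.1, and 33.1 and 16.8 in the same order. The sources used here do not place these probe sets with respect to the deleted sequence, so the levels are no check of the genotypes.

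Levels are dChip intensities on a linear scale. Differences are limma estimates of log2(intensity + 10.5) with their standard error (SE), a scale on which changes of low genes come out too small. Probe sets were tested where 2 or more arrays had them above their 40th percentile. This kept 12 of the 13 member probe sets, at least 1 for each of the 10 genes. Ly86 passed the filter through its WT arrays alone, Cd14 through its IRF4/8 DKO arrays, and Tlr1 through both knockout genotypes. Levels of different probe sets are not set against each other.

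Ly86 was near the bottom of the array in both knockout genotypes. Its only probe set read 11 and 3.52 in IRF4/8 DKO, 4.70 and 3.22 in IRF8 KO, and 625.5 and 574.8 in WT. The 4 knockout values did not come near the WT values. They stood at the 26.2 and 9.06 percentiles of their arrays in IRF4/8 DKO and at 11.6 and 8.13 in IRF8 KO, against 83.6 and 82.9 in WT. The mean was 7.26 ± 5.29 in IRF4/8 DKO and 3.96 ± 1.05 in IRF8 KO, against 600.1 ± 35.8 in WT (SD, n = 2 each). The log2 difference from WT was -5.14 ± 0.40 (SE) in IRF4/8 DKO and -5.40 ± 0.40 (SE) in IRF8 KO. Both knockout means lay below the value of 10.5 added before the logarithm, which sets the size of these differences: with 3.9 or 39.23 added, the difference was -5.84 or -3.79 in IRF4/8 DKO and -6.27 or -3.89 in IRF8 KO. The 2 comparisons use the same WT arrays. Between males alone the difference from WT was -4.89 in IRF4/8 DKO and -5.53 in IRF8 KO, and between females alone -5.38 and -5.27 in the same order.

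Between the knockout genotypes, Ly86 had a log2 difference of 0.27 ± 0.40 (SE) for IRF4/8 DKO minus IRF8 KO (limma adjusted p = 0.868). With both means below the added 10.5, this comparison could hardly show a difference, and nothing is read from its p. The IRF4/8 DKO replicate 1 array, at 11, was the highest of the 4, and without it the difference was -0.043. In bulk RNA, fewer cells of a type and less RNA per cell cannot be told apart.

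Cd180 did not follow Ly86, although its product needs MD-1 at the cell surface. It read 212 and 241 in IRF4/8 DKO, 365 and 588 in IRF8 KO, and 400 and 197 in WT. The WT arrays lay far apart, with both IRF4/8 DKO arrays and 1 of 2 IRF8 KO arrays between them. Relative to WT, the log2 difference was -0.30 ± 0.49 (SE) in IRF4/8 DKO and 0.70 ± 0.49 (SE) in IRF8 KO, and without WT replicate 1 that of IRF4/8 DKO was 0.19. Both IRF4/8 DKO arrays lay below both IRF8 KO arrays, with a log2 difference of -1.002 ± 0.49 (SE), which did not pass the test (limma adjusted p = 0.61). Across the 6 arrays, Cd180 had a Pearson r of -0.21 with Ly86, given as a description of arrays that fall into 3 genotypes.

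**Figure D1:**
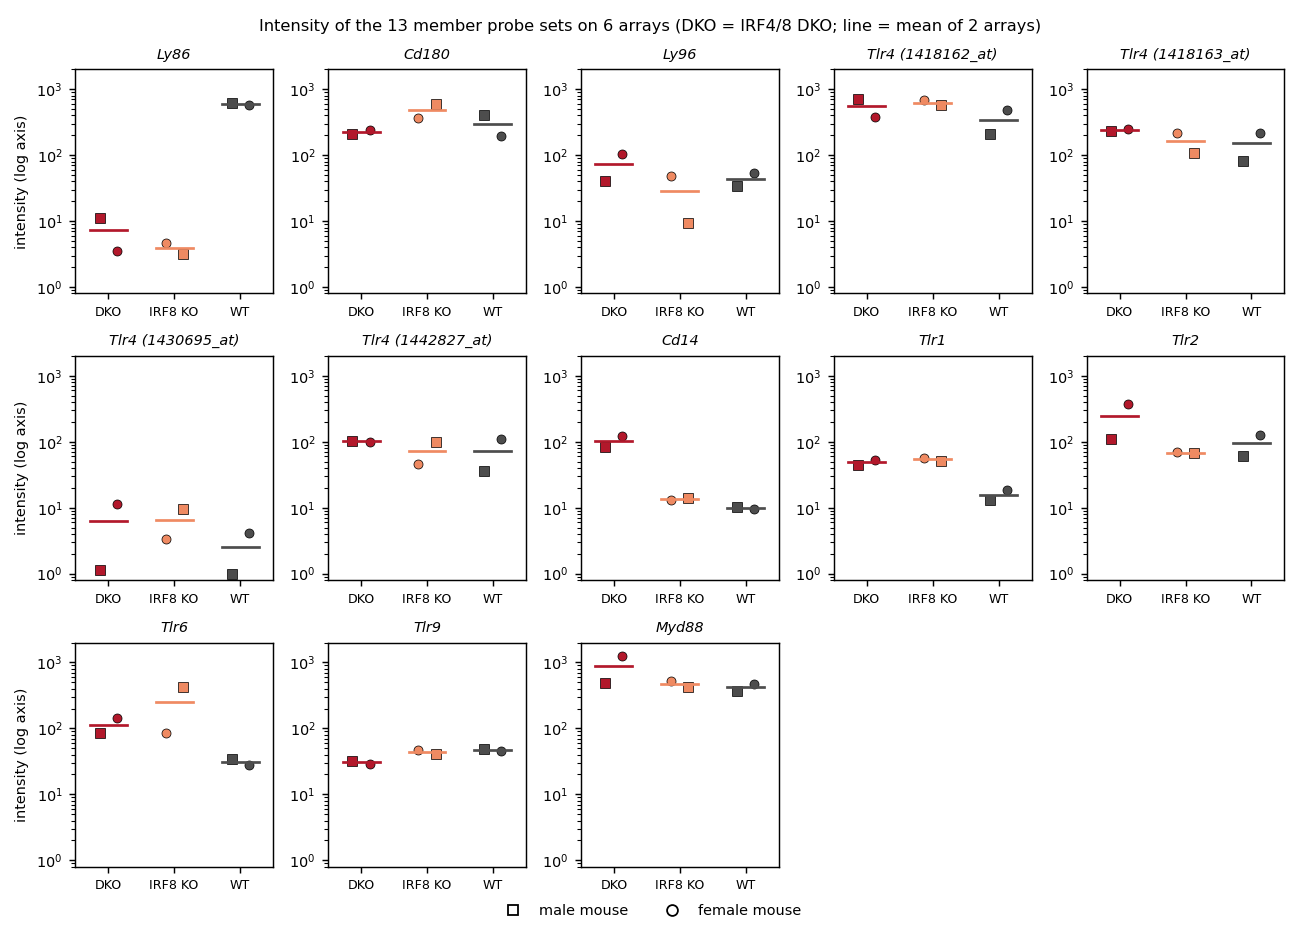
Intensity of the 13 member probe sets of the 10 genes on each array, 1 panel per probe set, all on the same log axis. IRF4/8 DKO is left, IRF8 KO middle and WT right, each point 1 array and each line the mean of 2 arrays. Ly86 sits at 3.22 to 11 on the knockout arrays and at 575 and 625 on the WT arrays, and Cd14 stands high on the IRF4/8 DKO arrays alone, at 84.4 and 123.

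The lipopolysaccharide receptor genes were read next. Cd14, whose product transfers lipopolysaccharide to TLR4 and MD-2, read 84.4 and 123 in IRF4/8 DKO, 12.96 and 13.95 in IRF8 KO, and 10.3 and 9.72 in WT. Both IRF4/8 DKO arrays stood well above the other 4, and the 2 IRF8 KO arrays stood just above the WT arrays. The mean was 103.9 ± 27.6 in IRF4/8 DKO and 13.5 ± 0.70 in IRF8 KO, against 9.99 ± 0.38 in WT (SD, n = 2 each). From WT it differed on the log2 scale by 2.46 ± 0.38 (SE) in IRF4/8 DKO and 0.23 ± 0.38 (SE) in IRF8 KO. IRF4/8 DKO lay 4.71-fold above IRF8 KO on the log2(intensity + 10.5) scale, a log2 difference of 2.24 ± 0.38 (SE) that was higher in 2 of 2 arrays. It did not pass the test (limma adjusted p = 0.427). Cd14 was kept by the filter only for its IRF4/8 DKO level, and its IRF8 KO arrays lay below the 40th percentile, so this difference is given as a description. Over all alternatives the difference ran from 1.43 to 2.61 and the limma adjusted p from 0.0586 to 0.963.

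Tlr4, the signalling receptor for lipopolysaccharide, had 4 probe sets. The first read 716 and 385 in IRF4/8 DKO, 677 and 571 in IRF8 KO, and 211 and 477 in WT. Both IRF8 KO arrays and 1 of 2 IRF4/8 DKO arrays lay above both WT arrays. On the log2 scale its difference from WT was 0.71 ± 0.51 (SE) in IRF4/8 DKO and 0.95 ± 0.51 (SE) in IRF8 KO. The second read 235 and 247 in IRF4/8 DKO, 215 and 109 in IRF8 KO, and 82.9 and 219 in WT, and the third read 102 and 100.5, 46.2 and 99.6, and 36.5 and 110.1 in the same order. In each of the 3 probe sets WT replicate 1 was the lowest array. For these other probe sets the log2 differences from WT were 0.78 and 0.57 in IRF4/8 DKO and 0.17 and 0.07 in IRF8 KO, each with an SE of 0.55. The fourth was not kept by the filter and read 11.4 at most. Between the knockout genotypes none of the 3 tested passed, with log2 differences of -0.24, 0.61 and 0.50 (limma adjusted p = 0.913, 0.771 and 0.813).

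Ly96, whose product MD-2 binds lipopolysaccharide directly, read 41.0 and 105 in IRF4/8 DKO, 48.9 and 9.33 in IRF8 KO, and 33.9 and 54.5 in WT. The genotypes overlapped on every side. The log2 difference from WT was 0.52 ± 0.61 (SE) in IRF4/8 DKO and -0.65 ± 0.61 (SE) in IRF8 KO. The sign turned without IRF4/8 DKO replicate 2 (-0.06) and without IRF8 KO replicate 2 (0.14). That of IRF4/8 DKO minus IRF8 KO was 1.17 ± 0.61 (SE, limma adjusted p = 0.632). Among the 6 arrays the highest was an IRF4/8 DKO and the lowest an IRF8 KO array, and without IRF8 KO replicate 2 the difference was 0.38.

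TLR2 forms pairs with TLR1 or TLR6 that recognise bacterial lipopeptides, and the genes Tlr1 and Tlr6 are direct neighbours on chromosome 5. Tlr1 read 45.2 and 52.7 in IRF4/8 DKO, 57.6 and 50.9 in IRF8 KO, and 13.3 and 18.3 in WT, so that all 4 knockout arrays lay above both WT arrays. Relative to WT, the log2 difference was 1.18 ± 0.38 (SE) in IRF4/8 DKO and 1.31 ± 0.38 (SE) in IRF8 KO. Between the knockout genotypes it was -0.12 ± 0.38 (SE, limma adjusted p = 0.942). Of the members, Tlr1 was the one most opposite to Ly86 across the 6 arrays, with a Pearson r of -0.988, which ranked 13257 of 13266 genes.

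Tlr6 read 85.2 and 143 in IRF4/8 DKO, 85.9 and 421 in IRF8 KO, and 34.2 and 27.7 in WT. All 4 knockout arrays again lay above WT, with the IRF8 KO male far above the other 3. From WT it differed on the log2 scale by 1.55 ± 0.67 (SE) in IRF4/8 DKO and 2.30 ± 0.67 (SE) in IRF8 KO. In IRF8 KO it was 3.27 between males and 1.34 between females. Between the knockout genotypes it was -0.75 ± 0.67 (SE, limma adjusted p = 0.769), and 0.33 without IRF8 KO replicate 2.

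Tlr2 read 110.3 and 376 in IRF4/8 DKO, 69.3 and 67.4 in IRF8 KO, and 61.0 and 128 in WT. The IRF8 KO arrays lay close together and inside the WT range, and both IRF4/8 DKO arrays lay above them. On the log2 scale its difference from WT was 1.12 ± 0.61 (SE) in IRF4/8 DKO and -0.33 ± 0.61 (SE) in IRF8 KO. That of IRF4/8 DKO minus IRF8 KO was 1.46 ± 0.61 (SE), with an unadjusted limma p of 0.0401 that did not pass after adjustment (limma adjusted p = 0.574). Its size rested on IRF4/8 DKO replicate 2, without which it was 0.62.

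Tlr9, an endosomal receptor for DNA rich in unmethylated CpG, read 31.9 and 28.9 in IRF4/8 DKO, 47.6 and 40.3 in IRF8 KO, and 49.4 and 46.0 in WT. Both IRF4/8 DKO arrays were below the other 4, within a narrow range of low intensities. The log2 difference from WT was -0.51 ± 0.37 (SE) in IRF4/8 DKO. In IRF8 KO it was -0.10 ± 0.37 (SE), and above 0 after quantile normalization or median centring. IRF4/8 DKO minus IRF8 KO was -0.41 (limma adjusted p = 0.773).

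Myd88, the adaptor that TLR2, TLR4 and TLR9 share, read 485 and 1262 in IRF4/8 DKO, 525 and 431 in IRF8 KO, and 366 and 467 in WT. One IRF4/8 DKO array, replicate 2, stood above all others, and the remaining 5 lay close together. Relative to WT, the log2 difference was 0.91 ± 0.50 (SE) in IRF4/8 DKO and 0.20 ± 0.50 (SE) in IRF8 KO. IRF4/8 DKO minus IRF8 KO was 0.71 (limma adjusted p = 0.71), and 0.03 without IRF4/8 DKO replicate 2.

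The 12 tested member probe sets were then counted. In IRF4/8 DKO against WT, 9 lay above and 3 below, with a median log2 difference of 0.74, beside -0.04 over all 29783 probe sets. Past the adjusted threshold of 0.05 were 1 higher, Cd14, and 1 lower, Ly86, where 0.299% of all probe sets were called, and the arrays did not overlap for 5 higher and 2 lower, where 43.6% of all did not. In IRF8 KO against WT, 8 lay above and 4 below, with a median of 0.18 beside -0.06. Here 1 was past the threshold, Ly86, lower, where 0.0302% of all were called, and the arrays did not overlap for 4 higher and 1 lower, where 45.7% of all did not. Both contrasts were used to choose the members, so nothing is read from these counts.

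In IRF4/8 DKO against IRF8 KO, 7 of the 12 lay above and 5 below, with a median of 0.38 beside 0.02 over all probe sets. No member passed (limma adjusted p from 0.427 to 0.942), where 0% of all probe sets were called, and 2 were higher at an unadjusted p under 0.05, Cd14 and Tlr2, where 1435 of all 29783 were higher and 1103 lower. Ly86, Cd14 and Tlr1 were kept through some genotypes alone, so these counts and medians are no support for a shift of the members. The arrays did not overlap for 4 higher and 2 lower, against 36.6% of all probe sets.

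**Figure D2:**
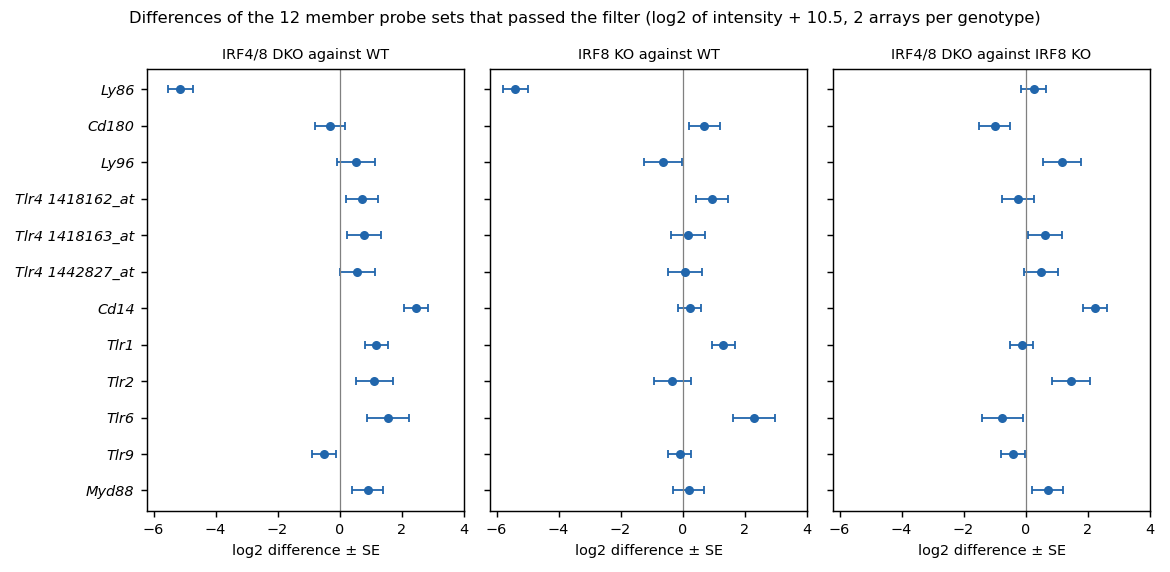
Log2 difference with its SE for each of the 12 tested member probe sets, in IRF4/8 DKO minus WT, IRF8 KO minus WT and IRF4/8 DKO minus IRF8 KO, on the log2(intensity + 10.5) scale. Ly86 stands near -5 in both comparisons with WT and at 0.27 between the knockouts, while Cd14 stands at 2.46, 0.23 and 2.24.

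The genes whose log2 levels followed Ly86 most closely across the 6 arrays were Csrp3 (Pearson r = 0.997), a muscle LIM protein gene, Mc5r (0.996), a melanocortin receptor gene, Fam171a1 (0.994), Tek (0.990), the gene of an angiopoietin receptor, and Gimap9 (0.990), a GTPase gene of lymphocytes. No member was among them. The most opposite were Mefv (-0.999), the gene of the inflammasome protein pyrin, Tmem178 (-0.997), Smpdl3a (-0.995), Gas7 (-0.995) and Phyh (-0.994). Ly86 separates WT from both knockout genotypes, so these values describe genes with the same split over 3 genotypes of 2 arrays. For the other members, r with Ly86 was 0.60 for Tlr9, 0.04 for Ly96, -0.24 for Tlr2, -0.48 for Myd88, -0.54 for Cd14, -0.65 for Tlr4 and -0.81 for Tlr6.

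The rest of the pathway was read from a list of 57 further genes, of which 49 had a probe set with a single symbol and 43, with 85 probe sets, were tested. None passed in any comparison. Of all probe sets, 0.299% were called in IRF4/8 DKO against WT, 0.0302% in IRF8 KO against WT and 0% between the knockouts. With shares this small, nothing is read from the absence of calls. The smallest limma adjusted p was 0.103 in IRF4/8 DKO against WT, 0.0988 in IRF8 KO against WT and 0.556 in IRF4/8 DKO against IRF8 KO. Those against WT were of Tlr7 and Cxcl2, which the filter kept through some genotypes alone, so nothing is read from them. At an unadjusted p under 0.05, 6 probe sets were higher and 2 lower in IRF4/8 DKO against WT, 9 and 3 in IRF8 KO against WT, and 1 and 0 between the knockouts. Over all 29783 probe sets the counts were 1026 and 1670, 1467 and 2540, and 1435 and 1103 in the same order. The median log2 difference was 0.14, 0.10 and -0.01 in the same order. The genes named next had the smallest p of their role in a comparison, and none passed.

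Among the other receptors, Tlr7, an endosomal receptor for single-stranded RNA, read 80.0 and 106 in IRF4/8 DKO, 29.2 and 46.0 in IRF8 KO, and 12.0 and 16.5 in WT. The 3 genotypes did not overlap, with the IRF8 KO arrays between the others. From WT it differed on the log2 scale by 2.06 ± 0.40 (SE, limma adjusted p = 0.103) in IRF4/8 DKO and 0.94 ± 0.40 (SE, limma adjusted p = 0.359) in IRF8 KO. This probe set was kept by the filter through its knockout arrays alone. Its differences from WT are therefore a description, and nothing is read from their p or from a later call of Tlr7. Its other 2 probe sets gave only 0.32 and 0.06 in IRF4/8 DKO.

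Unc93b1, a chaperone that carries TLR7 and TLR9 to endosomes, read 479 and 1316 in IRF4/8 DKO, 860.2 and 879 in IRF8 KO, and 273 and 278 in WT. All 4 knockout arrays lay above WT, with log2 differences of 1.49 and 1.62 (limma adjusted p = 0.38 and 0.225). Nfkbia, which codes for an inhibitor of NF-kB, read 1431 and 1808 in IRF4/8 DKO, 1733 and 3142 in IRF8 KO, and 1072 and 433 in WT by the probe set of smallest p. Its log2 difference was 1.22 in IRF4/8 DKO and 1.76 in IRF8 KO (limma adjusted p = 0.478 and 0.179). The kinase gene Ikbke lay 0.95 and 1.32 above WT in the same order (limma adjusted p = 0.501 and 0.207).

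Of the outputs of the pathway, Cxcl2, a neutrophil-attracting chemokine gene, read 39.5 and 23.1 in IRF4/8 DKO, 15.6 and 17.4 in IRF8 KO, and 92.1 and 171 in WT. All 4 knockout arrays lay below WT, with log2 differences of -1.74 in IRF4/8 DKO and -2.34 ± 0.44 (SE) in IRF8 KO (limma adjusted p = 0.211 and 0.0988). Both IRF8 KO arrays lay below the 40th percentile, and the filter kept Cxcl2 through its WT and IRF4/8 DKO arrays alone. Its differences from WT are therefore a description, and nothing is read from their p. The chemokine gene Ccl4, named for the comparison of the knockouts, read 56.2 and 46.95 in IRF4/8 DKO, 18.8 and 13.15 in IRF8 KO, and 219 and 47.6 in WT. IRF4/8 DKO minus IRF8 KO was 1.23 (limma adjusted p = 0.611). The log2 difference of IRF8 KO from WT was -2.13 (limma adjusted p = 0.197), with the WT arrays far apart. Both IRF8 KO arrays of Ccl4 also lay below the 40th percentile, so these differences are a description and nothing is read from their p. Btk, a kinase downstream of RP105 in B cells, had log2 differences from WT of 0.79 in IRF4/8 DKO and 0.25 in IRF8 KO (limma adjusted p = 0.767 and 0.879).

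In IRF4/8 DKO against WT, the adaptor gene Ticam1, which codes for TRIF, lay above WT by a log2 difference of 0.80 and the kinase gene Ikbkb below by -1.44 (limma adjusted p = 0.718 and 0.408). Nfkb2, an NF-kB subunit gene, had 1.65 in IRF4/8 DKO and 1.56 in IRF8 KO against WT (limma adjusted p = 0.633 and 0.456), and Pik3ap1, an adaptor gene, 0.72 in IRF8 KO against WT (limma adjusted p = 0.531). In IRF4/8 DKO against IRF8 KO, Lbp, which codes for the serum protein that passes lipopolysaccharide to CD14, had -1.04 (limma adjusted p = 0.648). The kinase regulator gene Ikbkg had 0.96, the transcription factor gene Irf5 0.69 and the ubiquitin ligase gene Peli1 0.88 (limma adjusted p = 0.585, 0.701 and 0.593). This Peli1 probe set was kept by the filter through its IRF4/8 DKO and WT arrays alone, so its difference is a description. Other probe sets of some of these genes differed: the same comparisons gave 0.21 for Lbp, -0.89 to 0.47 for Peli1, -0.81 to 0.60 for Ikbkg, 0.18 and -0.06 for Nfkb2, -0.23 for Pik3ap1 and -1.07 to 0.13 for Ikbkb, while Irf5 gave 0.54.

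**Figure D3:**
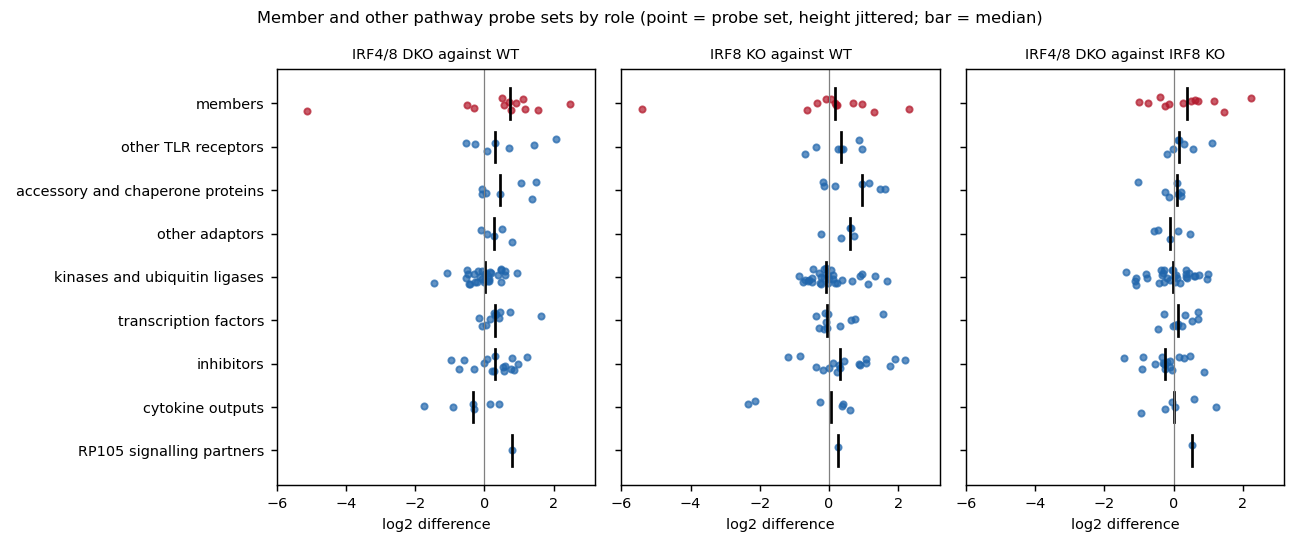
Log2 differences of the 85 tested probe sets of other pathway genes by role, below the 12 of the members, in the 3 comparisons, each point 1 probe set (jittered in height) and each bar the median of a row. The medians of the roles lie between -0.33 and 0.96, while Ly86 stands far to the left of all others in both comparisons with WT.

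Cells that carry the RP105 complex or the receptors at high level could be present in the sort, so their markers were summed on each array. The monocyte and macrophage list summed to 25919 and 35371 in IRF4/8 DKO, 23286 and 24403 in IRF8 KO, and 11614 and 12284 in WT. This sum was higher on all 4 knockout arrays, on which Ly86 was lower and Tlr1 and Tlr6 were higher. F13a1 was the highest probe set of the list on every array. Of the 18 tested probe sets, 14 lay above and 4 below WT in IRF4/8 DKO, and 15 and 3 in IRF8 KO. Klf4 was lower in the knockouts by both probe sets. The first read 91.5 and 61.8 in IRF4/8 DKO, 118 and 17.8 in IRF8 KO, and 280 and 460 in WT. The dendritic cell list summed to 3819 and 4046 in IRF4/8 DKO, 4731 and 5693 in IRF8 KO, and 4960 and 3989 in WT. Its genes Batf3, at 1 on all arrays, and Siglech, at 4.07 or less, were near the lowest values on the array, while Tcf4, Bst2 and H2-Ab1 were well measured, with Bst2 at 180.3 to 505. Of its 16 tested probe sets, 2 were called lower in IRF4/8 DKO against WT, both of the MHC class II gene H2-Aa. Of these, 1 read 10.8 and 12.7 in IRF4/8 DKO, 120.2 and 156 in IRF8 KO, and 206 and 174 in WT. Both were kept by the filter through IRF8 KO and WT arrays alone. The same comparison called 4 of 18 monocyte and macrophage and 1 of 11 neutrophil probe sets higher. It called 4 of 9 eosinophil, basophil and mast cell and 1 of 8 erythroid and megakaryocyte probe sets lower. Over all probe sets 0.299% were called, and nothing is read from these counts. The B cell list, 9 measured genes, summed to 1384 and 2018 in IRF4/8 DKO, 1736 and 2136 in IRF8 KO, and 920 and 824 in WT, and was higher on all 4 knockout arrays. Vpreb1, a surrogate light chain gene of B cell precursors, made up most of that difference, at 668 and 1006 in IRF4/8 DKO, 771 and 1275 in IRF8 KO, and 187 and 185 in WT, with 0 probe sets of the list past the test. The antigen receptor gene Cd79b read 291 to 656, and the defining B cell genes Pax5 and Ms4a1 were at 6.23 and 21.2 or less.

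The neutrophil list summed to 21533 and 47740 in IRF4/8 DKO, 26059 and 49827 in IRF8 KO, and 12561 and 30768 in WT. In each genotype replicate 2 was the higher array. Myd88, Tlr2, Tlr1, Ly96 and the second Tlr4 probe set were higher on replicate 2 in IRF4/8 DKO and WT but not in IRF8 KO. Tlr6, Cd180 and Cd14 were higher on replicate 2 in both knockout genotypes but not in WT. No tested member probe set was higher on replicate 2 in all genotypes. The eosinophil, basophil and mast cell list summed to 569.7 and 631.4 in IRF4/8 DKO, 4207 and 1808 in IRF8 KO, and 14109 and 8275 in WT, and the erythroid and megakaryocyte list to 300.3 and 261, 1721 and 695, and 8250 and 2854 in the same order. Both were lower on all 4 knockout arrays, as Ly86 was. The part of these cells in the levels of Ly86, Cd14, Tlr1 and the other members was not tested.

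**Figure D4:**
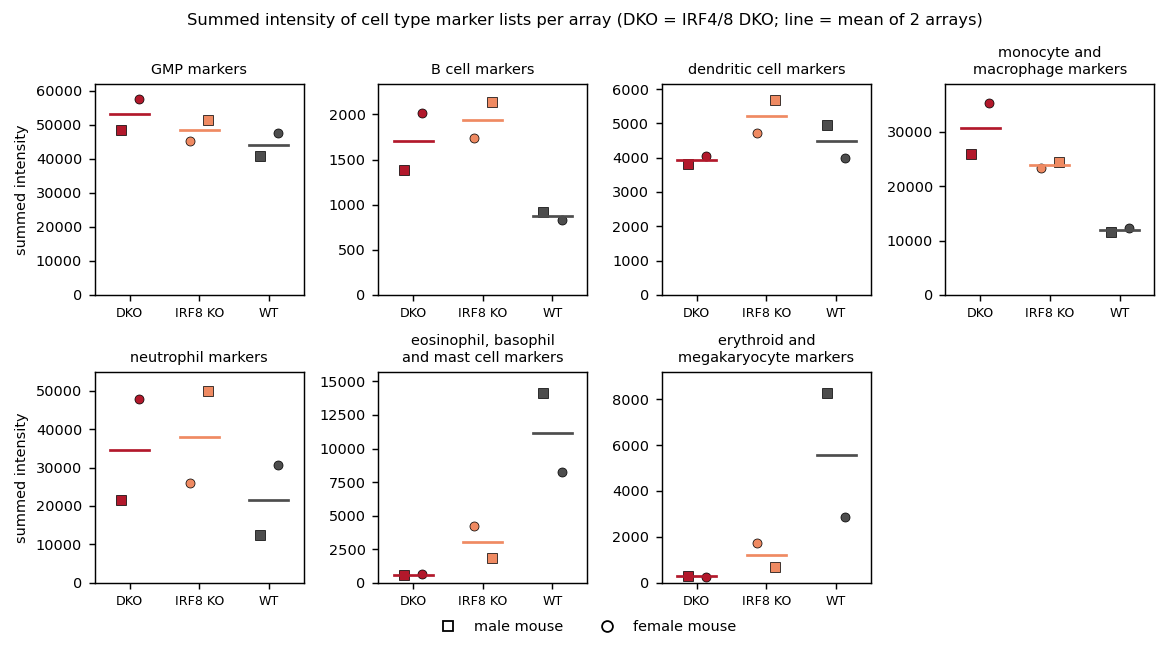
Summed intensity of the markers of 7 cell types on each array, 1 panel per list with a linear axis from 0, IRF4/8 DKO left, IRF8 KO middle and WT right, each point 1 array. The monocyte and macrophage sums of the knockouts, 23286 to 35371, lie above both WT sums, and the eosinophil, basophil and mast cell sums of the knockouts, 569.7 to 4207, lie below them.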

How the data were processed

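The authors deposited 1 intensity per probe set and array, normalized and summarized with the difference model of dChip 1.3, as the series' design text states. The sources used here name neither the normalization method nor a floor, and 5201 of the values are exactly 1. From these, log2(intensity + 10.5) was computed, where 10.5 is the 25th percentile of all deposited values. All 29783 kept probe sets and all 6 arrays were fitted together in limma 3.58.1 (R 4.3.3, eBayes with trend, no covariates), with Benjamini-Hochberg adjustment over all kept probe sets. Symbols came from the platform annotation, checked against RefSeq genes of GRCm38.p6. Probe sets with several symbols (932) or none (9160) were tested but not named. The likeness to Ly86 used 1 kept probe set per gene, the one of highest mean.

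The members, lists and tests were chosen with earlier results of these data known, and the 2 sequence patterns after the windows were read. The text names every member, of each other role the gene of smallest p per comparison, and the 5 genes most like and 5 most opposite to Ly86. Alternatives were quantile normalization, median centring, 2 other pseudocounts, a filter at the 60th percentile or none, a variance that is robust or has no trend, only the genotypes compared, sex, age or replicate number as a term, and each array left out. Precision is limited by the number of arrays, which have no depth. The fit was run on simulated data with independent noise on each array. These do not hold the joint variation of mouse, sex and age, so nothing is read from them on that limit.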

Additional observations from a re-analysis of the deposited data

Results flagged for a closer look

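Differences of opposite sign in the sexes, of at least 0.5 on the log2 scale in each sex, were flagged for 2 member probe sets. Other member probe sets, such as Cd180 in IRF4/8 DKO and Tlr2 in IRF8 KO against WT, had opposite signs with a smaller difference in 1 sex. Each sex and genotype has 1 array, so the difference between the sexes was not tested. The third Tlr4 probe set had a log2 difference of IRF8 KO from WT of 1.23 between males and -1.09 between females, 2.32 apart. Tlr6 had a log2 difference of IRF4/8 DKO from IRF8 KO of -2.17 between males and 0.67 between females, which is -2.85 for males minus females. Ages differ between these arrays as well.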

How the results depend on the processing

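Ly86 lay below WT in both knockout genotypes under all 18 alternatives. Of the 12 member probe sets, 2 were called in IRF4/8 DKO against WT, and 1 (Ly86) with 3.9 added before the logarithm, without the filter, with a filter at the 60th percentile, with median centring or without a variance trend. With sex as a block it was 0, and leaving out 1 array gave 0 to 2, with 0 without either WT or either IRF4/8 DKO array. In IRF8 KO against WT the count was 1, and leaving out 1 array gave 0 to 2, with 0 without either WT array and 2 without IRF8 KO replicate 1, where Tlr6 joined Ly86. Between the knockouts it was 0 throughout. Counts of other pathway probe sets were 0, with 1 (Tlr7) when only IRF4/8 DKO and WT were fitted, and leaving out 1 array gave 0 to 7 in IRF8 KO against WT, 0 to 1 in IRF4/8 DKO against WT and 0 to 2 between the knockouts. Over all probe sets, the 9 calls of IRF8 KO against WT ranged from 0 (without a WT array) to 1090 (without IRF8 KO replicate 1), the 89 of IRF4/8 DKO against WT from 0 (sex as a block) to 484, and the 0 between the knockouts reached 200 (without IRF8 KO replicate 1). Without 1 array, 3 differences of IRF4/8 DKO from IRF8 KO changed sign: Ly86 (-0.043 to 0.57, negative without IRF4/8 DKO replicate 1), the first Tlr4 probe set (-0.68 to 0.20, positive without IRF4/8 DKO replicate 2) and Tlr6 (-1.83 to 0.33, positive without IRF8 KO replicate 2). Against WT, leaving out an array also turned the sign for Cd180 (IRF4/8 DKO, 0.19), Ly96 (IRF4/8 DKO, -0.06, and IRF8 KO, 0.14), Tlr2 (IRF8 KO, 0.14), the second Tlr4 probe set (IRF8 KO, down to -0.48) and the third (IRF4/8 DKO, -0.11, and IRF8 KO, down to -0.61). The cause was not tested. Where a genotype keeps 1 array, it is assumed to vary like the others. The median of all probe sets in IRF4/8 DKO against WT was 0.18 with median centring, against -0.04, and the share of calls that were higher was 42.2% against 30.3%. In IRF8 KO against WT that share was 50% with centring and 43.3% with quantile normalization, against 33.3%. The sample titles give only a replicate number, and whether same-numbered arrays share anything else was not tested. Deviations of same-numbered arrays correlated at 0.211 for IRF4/8 DKO and IRF8 KO, 0.187 for IRF4/8 DKO and WT and 0.0411 for IRF8 KO and WT. With the replicate block, 2 members were called in IRF4/8 DKO against WT, 1 in IRF8 KO against WT and 0 between the knockouts, and the counts over all probe sets were 216, 209 and 1.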

Other observations

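Among pathway genes that the filter left out, 3 with arrays of the knockouts all on one side of WT were chosen after their values were seen, and none was tested. Tlr8, an endosomal receptor gene, read 15.9 and 29.5 in IRF4/8 DKO, 20.9 and 13.5 in IRF8 KO, and 3.55 and 4.13 in WT. Tlr13, the gene of an endosomal receptor for bacterial ribosomal RNA, read 2.53 and 12.7 in IRF4/8 DKO, 13.8 and 3 in IRF8 KO, and 29.2 and 19.6 in WT. The cytokine gene Il6 read 1.21 and 1 in IRF4/8 DKO, 6.15 and 6.95 in IRF8 KO, and 36.3 and 16.5 in WT.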
